A study of Mus musculus with 6 samples.

Results

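miR-132-3p and miR-212-3p are 2 mature miRNAs made from neighbouring hairpins of 1 primary transcript. They were taken as the rows MIMAT0000144 and MIMAT0000659 of the deposited counts, 2 of the 707 mature miRNAs listed. The rule that picks them uses their accessions and no measured value, although it was written with earlier results of these data known. The counts came from small RNA libraries of white adipose tissue (WAT) of male ApoE-deficient mice, with 3 libraries in the chronic intermittent hypoxia (CIH) group and 3 in the control group. ApoE-deficient mice lack apolipoprotein E, a protein through which lipoproteins are cleared from the blood, and the deletion was carried by both groups. CIH, which models obstructive sleep apnea, lasted 8 weeks, and in it the cage gas cycled between 21% and about 6% oxygen, with 60 s for each fall and each return. No mice with intact ApoE were included, so an effect of CIH that needs the deletion cannot be told apart from one that does not. The age of the mice and the fat depot are not given in the sources used here.

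The miR-212/132 locus is a classic target of CREB, the transcription factor that is activated by cAMP signalling and binds cAMP response elements. It is best known from neurons, where activity and neurotrophins induce it, and miR-132 has also been studied in endothelial cells and in nutrient-deprived fat cells. A mature miRNA guides the silencing complex to mRNAs that pair with its seed, bases 2 to 8 counted from its 5′ end, and lowers their translation and stability. Known targets of miR-132 include the Ras GTPase-activating protein p120RasGAP and the deacetylase SIRT1.

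Both mature sequences were found by name in RefSeq on GRCm38.p6 (2 of 2 matched), and they are shown because their shared seed is what makes them a family. The seed is in capitals.
miR-132-3p: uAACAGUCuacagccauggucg
miR-212-3p: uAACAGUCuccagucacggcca

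The first 9 bases of both were identical, and 17 of the 22 bases matched in all. With positions counted from 1 at the 5′ end and miR-132-3p given first, the differences were A10C, C14U, U17C, U20C and G22A. Of the 1679 mature miRNA names in the RefSeq table, only these 2 carried the seed AACAGUC, whose perfect match in a target written as DNA is GACTGTT. Both miRNAs are therefore read by the same seed matches, and the bases that separate them lie outside the seed. Reads long enough to reach position 10 can tell them apart.

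The hairpins are shown next, as the precursors from which the counted arms, in capitals, are cut.
Mir212: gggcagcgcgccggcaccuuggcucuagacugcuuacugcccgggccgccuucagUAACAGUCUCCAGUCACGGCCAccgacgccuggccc
Mir132: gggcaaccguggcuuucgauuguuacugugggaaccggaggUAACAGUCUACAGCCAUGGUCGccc

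On GRCm38, Mir212 lies at chr11:75173388-75173478 and Mir132 at chr11:75173682-75173747, both on the plus strand, with 203 bases between them. miR-212-3p covers chr11:75173443-75173464 and miR-132-3p chr11:75173723-75173744. In GENCODE release M21 both hairpins fall in the intron between the first and the second exon of the noncoding transcript 1700016P03Rik (chr11:75172560-75177633, 3 exons), and neither overlaps an exon of it. No other miRNA gene is annotated within 10 kb. Each mature sequence was found in 1 of the 1005 hairpins of the RefSeq table, so reads of neither miRNA are shared with a second locus there.

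**Figure D1:**
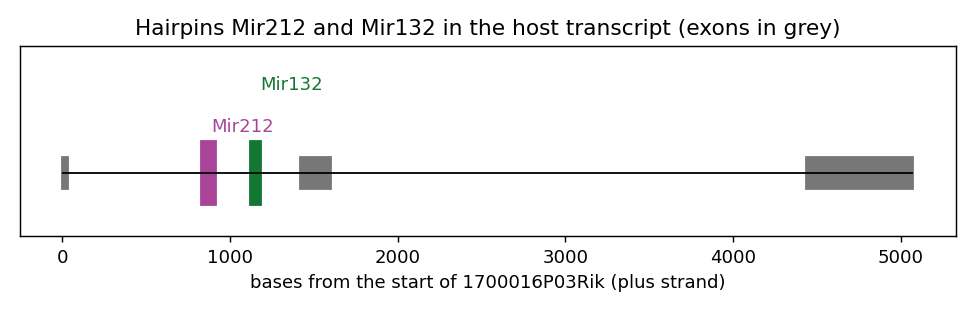
Map of the host transcript 1700016P03Rik, with the distance in bases from its start on the x axis, exons as grey boxes and the hairpins Mir212 and Mir132 as coloured boxes. Mir212 begins 828 bases and Mir132 1122 bases from the start of the transcript, both ahead of the second exon.

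The libraries held between 636963 and 4783768 counts. TMM normalization, which corrects library totals for composition, gave factors between 0.575 in control 1 and 1.45 in CIH 3. The control libraries were split. Log2 levels of control 3 over the 633 miRNAs tested correlated with those of control 1 and control 2 at 0.595 and 0.661. With those of the CIH libraries they correlated at 0.958 to 0.974. Control 1 and control 2 correlated at 0.831 with each other and at 0.621 to 0.712 with the CIH libraries. Among themselves the CIH libraries correlated at 0.952 to 0.972. These values describe likeness across miRNAs, which are not independent. Control 1 and control 2 also had the fewest detected miRNAs, 487 and 552, against 636 in control 3 and 631 to 649 in the CIH libraries. Whether labels or tissue samples differed, and in which control libraries, cannot be told from the counts and labels. Every control mean below includes all 3 unless stated. The fold changes with their edgeR tests, and the difference in the ratio, are therefore also given without control 3. The other group comparisons below are given only with it. Markers of adipocytes and of other cell types were not tested, since the counts are listed by accession. In bulk tissue, fewer cells of a type and less of a miRNA per cell cannot be told apart.

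Both miRNAs were scarce in this tissue. miR-132-3p had 150 reads over the 6 libraries and miR-212-3p had 60. By count, miR-132-3p ranked between 190 of 487 detected miRNAs in control 1 and 391 of 640 in CIH 1, and miR-212-3p between 256 of 487 in control 1 and 561 of 631 in CIH 2. Neither shared its counts with another miRNA in all 6 libraries. One read was worth between 0.241 TMM-normalized CPM (reads scaled to a common library size) in control 2 and 1.27 in control 1, so the levels of miR-212-3p rested on 1 to 5 reads in 4 of the 6 libraries.

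miR-132-3p, the better covered of the pair, had 43, 62 and 14 reads in control 1, 2 and 3, and 12, 8 and 11 reads in CIH 1, 2 and 3. After TMM normalization the control libraries stood at 54.7, 15.0 and 12.6 CPM and the CIH libraries at 9.64, 8.64 and 11.9 CPM. Every CIH library was below every control library, but control 3 and CIH 3 were separated by less than 1 read. The exact 95% Poisson intervals, which cover counting error only, ran from 39.6 to 73.7 CPM in control 1, from 6.90 to 21.2 CPM in control 3 and from 5.96 to 21.4 CPM in CIH 3. On the TMM scale control 1 was thus above the other 5 libraries beyond counting error. Control 2 and control 3 had intervals that overlapped those of all 3 CIH libraries. By library totals control 1 was also the highest, at 31.5 CPM against 17.7 CPM in control 3, but no intervals were computed on that scale. The separation beyond counting error was therefore shown on the TMM scale only. The Poisson intervals above do not cover error in the TMM factors.

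The mean level of miR-132-3p was 27.4 ± 23.7 CPM for the control libraries (SD, n = 3) and 10.1 ± 1.69 CPM for those of the CIH group (SD, n = 3). On the log2 scale the fitted fold change was -1.43 (standard error 0.78, 95% interval -3.28 to 0.43), and the difference did not pass edgeR's quasi-likelihood test with Benjamini-Hochberg adjustment (adjusted p = 0.882, unadjusted p = 0.111). The same test called 0 of the 633 miRNAs (0%) at an adjusted p under 0.05 and 16 at an unadjusted p under 0.05. A two-sided exact permutation test on the log2 level gave p = 0.1, the smallest that 3 libraries against 3 allow. Groups that did not overlap, with CIH lower, were found for 3.0% of all miRNAs tested. With library totals in place of TMM the groups of miR-132-3p overlapped, with 13.0 CPM in control 2 against 17.3 CPM in CIH 3, while 3.16% of all miRNAs tested did not overlap with CIH lower on that scale.

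miR-212-3p had 16, 33 and 2 reads in control 1, 2 and 3, and 5, 1 and 3 reads in CIH 1, 2 and 3. The TMM-normalized levels were 20.4, 7.96 and 1.80 CPM in control 1, 2 and 3 and 4.02, 1.08 and 3.25 CPM in CIH 1, 2 and 3. The groups overlapped, because control 3 was below CIH 1 and CIH 3. The Poisson interval of control 1 ran from 11.6 to 33.1 CPM and that of control 2 from 5.48 to 11.2 CPM. The interval of control 2 overlapped those of control 3 and of all 3 CIH libraries, and that of control 1 did not overlap any other. By library totals control 1 stood at 11.7 CPM and control 2 at 6.90 CPM, and no intervals were computed on that scale. The mean was 10.04 ± 9.45 CPM for the control libraries (SD, n = 3) and 2.78 ± 1.52 CPM for those of the CIH group (SD, n = 3). The fitted log2 fold change was -1.78 (standard error 1.05, 95% interval -4.30 to 0.74), and edgeR's quasi-likelihood test gave an unadjusted p of 0.137 and an adjusted p of 0.882. The exact permutation test gave p = 0.3.

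**Figure D2:**
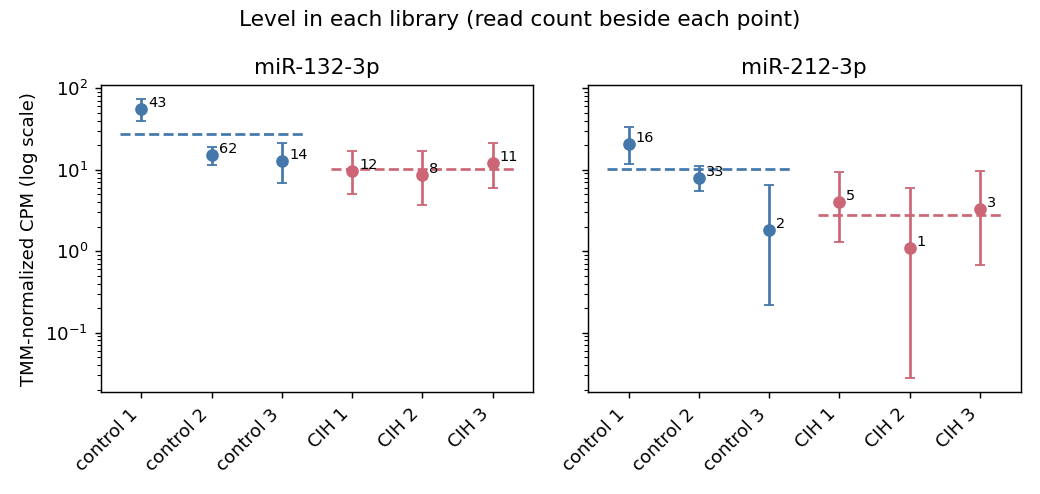
TMM-normalized CPM of miR-132-3p (left) and miR-212-3p (right) in each library, on a log axis; bars are exact 95% Poisson intervals, dashed lines the group means and the numbers the reads counted. Control 1 is the highest library for both miRNAs, and control 3 lies among the CIH libraries for miR-212-3p and close to them for miR-132-3p.

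The size of both differences rested on control 1. It held 66.5% of the summed control level of miR-132-3p and 67.6% of that of miR-212-3p. Control 1 was the highest of the 6 libraries for both, as it was for 21.6% of all miRNAs tested. Without control 1 the log2 fold change was -0.43 (95% interval -1.86 to 0.996) for miR-132-3p and -0.85 (95% interval -3.33 to 1.64) for miR-212-3p, with an adjusted p of 0.941 for both in edgeR's test. The mean of control 2 and control 3 alone was 13.8 CPM for miR-132-3p and 4.88 CPM for miR-212-3p.

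Leaving out control 3 moved both estimates the other way. The log2 fold change without it was -1.77 (95% interval -3.37 to -0.17, unadjusted p = 0.0354 and adjusted p = 0.110 by edgeR) for miR-132-3p. For miR-212-3p it was -2.26 (95% interval -4.15 to -0.36, unadjusted p = 0.0269, adjusted p = 0.0927 by edgeR). Both therefore met an unadjusted p under 0.05 with at least a 1.5-fold lower level in CIH, which 12.2% of the 614 miRNAs tested without control 3 also met. Neither was among the 19.2% with an adjusted p under 0.05 in that fit. Control 3 was singled out by its likeness to the CIH libraries in these same counts, so dropping it favours a larger group difference. The p-values and intervals without control 3 therefore describe that fit only and cannot serve as tests of a difference. With all 6 libraries and TMM, 2.05% of the miRNAs tested met the first criterion and the pair was not among them.

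**Figure D3:**
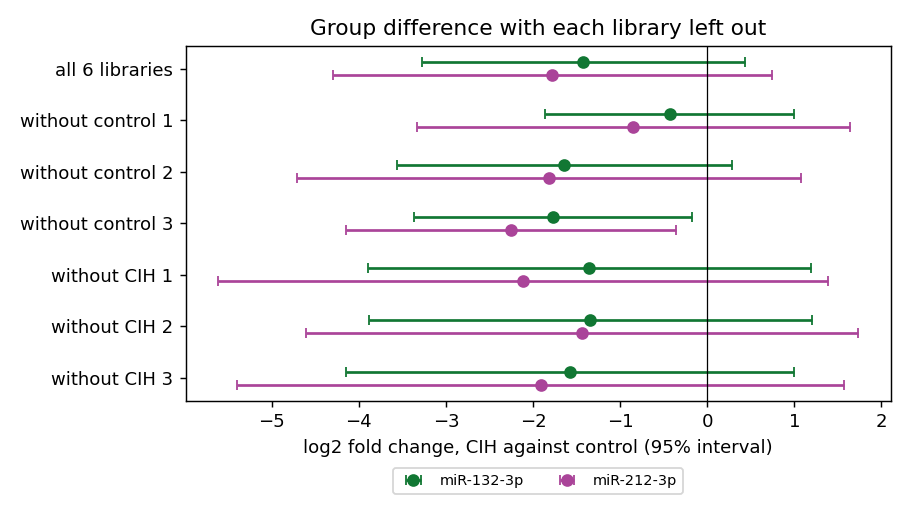
Log2 fold change of CIH against control for both miRNAs, with its 95% interval from edgeR's quasi-likelihood fit, for all 6 libraries and for each fit that leaves out 1 of them. The estimates stay below 0 in every fit, the smallest are those without control 1 (-0.43 and -0.85), and the intervals lie wholly below 0 only without control 3. Control 3 was singled out on these same counts, so the fit without it cannot serve as a test.

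Set against the whole table, the pair lay on the lower side of the fold changes. Of all miRNAs tested, 15.0% had a lower log2 fold change than miR-132-3p and 10.6% a lower one than miR-212-3p, and the median of all was 0.07. A fitted level at least 1.5-fold lower in CIH was found for both members and for 31.0% of all miRNAs tested. The scaling left the sign and changed the size and, for miR-132-3p, the unadjusted call. With library totals the median of all miRNAs moved to 0.33, and the log2 fold changes relative to that median were -1.13 for miR-132-3p and -1.53 for miR-212-3p, against -1.50 and -1.85 with TMM. With upper-quartile factors the median was -0.52 and the values relative to it were -1.59 and -1.99. On that scale, with all 6 libraries, the log2 fold change of miR-132-3p itself was -2.11 (95% interval -4.15 to -0.06, unadjusted p = 0.0450 and adjusted p = 0.561 by edgeR), so that it met the unadjusted criterion, as did 6.0% of all miRNAs tested, with CIH lower. miR-212-3p did not (-2.50, 95% interval -5.21 to 0.20, unadjusted p = 0.0648 by edgeR).

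**Figure D4:**
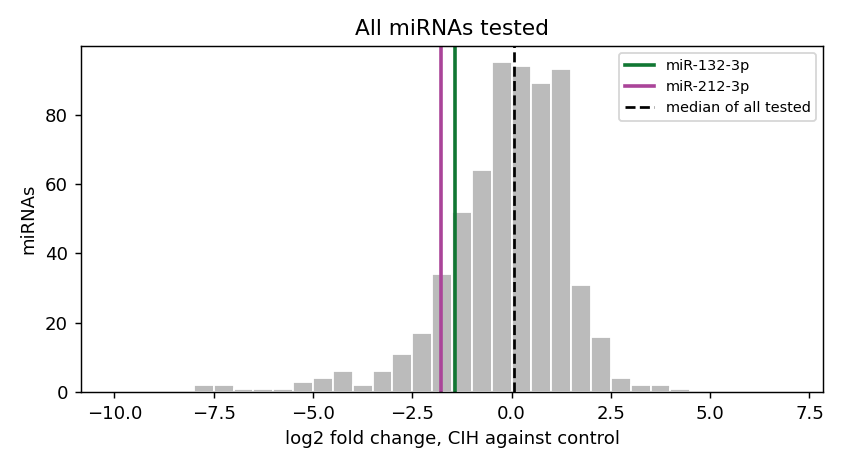
Histogram of the log2 fold change (CIH against control) of the 633 miRNAs tested, in bins of 0.5, with vertical lines for miR-132-3p, miR-212-3p and the median of all. The lines at -1.43 and -1.78 fall within the lower side of the distribution, inside its range.

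Both miRNAs are cut from 1 transcript and are 22 bases long. Their ratio was taken within each library, where library size and scaling cancel. miR-132-3p had more reads than miR-212-3p in 6 of 6 libraries. miR-212-3p made up 27.1%, 34.7% and 12.5% of the reads of the pair in control 1, 2 and 3, and 29.4%, 11.1% and 21.4% in CIH 1, 2 and 3. The Wilson 95% intervals were 25.9% to 44.7% in control 2, which had 95 reads of the pair, and 1.99% to 43.5% in CIH 2, which had 9. The 6 intervals all overlapped, but overlap of intervals of single libraries is not a test between the groups. The groups are compared by the log2 ratio below. Ligation and amplification differ between miRNA sequences, so the ratio of reads is not the ratio of molecules.

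The log2 ratio of miR-132-3p to miR-212-3p, with 0.5 added to each count, was 1.40, 0.90 and 2.54 in control 1, 2 and 3, and 1.18, 2.50 and 1.72 in CIH 1, 2 and 3. Its mean was 1.61 ± 0.84 for control (SD, n = 3) and 1.80 ± 0.66 for CIH (SD, n = 3). The difference of 0.19 was smaller than the spread between libraries (two-sided exact permutation test, p = 0.8). Its sign depended on single libraries, at -0.17 without control 2 and -0.16 without CIH 2, and its size too, at 0.65 without control 3 (same permutation test, p = 0.4). The ratio was highest in control 3 and CIH 2, the libraries with 2 and 1 reads of miR-212-3p.

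**Figure D5:**
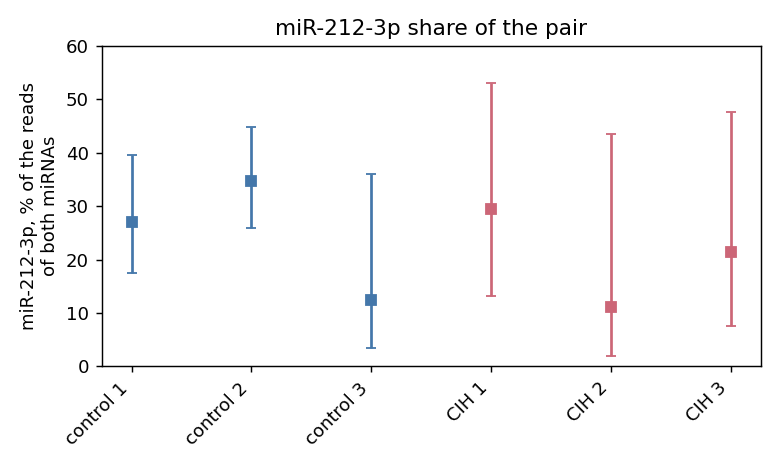
Share of miR-212-3p in the reads of miR-132-3p and miR-212-3p together, in percent, for each library, with Wilson 95% intervals for counting error. The shares run from 11.1% to 34.7%, with control and CIH libraries interleaved and all intervals overlapping.

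Summed over the pair, the locus gave 75.1, 22.9 and 14.4 CPM in control 1, 2 and 3, and 13.7, 9.72 and 15.2 CPM in CIH 1, 2 and 3. The sum followed the order of its larger part only in part. Control 3 was above every CIH library for miR-132-3p alone, and below CIH 3 once miR-212-3p was added. Both gaps between control 3 and CIH 3 were smaller than 1 read, which was worth 0.901 CPM in control 3. Control 3 had 16 reads of the pair and CIH 3 had 14, so their order is not resolved.

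The pattern of each member over the 6 libraries was compared with that of the 379 miRNAs with at least 100 reads in all, by the root mean square difference of log2 levels centred on each miRNA's own mean. This describes likeness over 6 libraries and says nothing of shared function. The pair differed from each other by 0.49, against a median of 1.28 between miR-132-3p, itself among the 379, and the others of them. The closest to miR-132-3p was MIMAT0049832 at 0.34, with 63, 160 and 44 reads in control 1, 2 and 3 and 31, 24 and 23 in CIH 1, 2 and 3. The closest to miR-212-3p was the far more abundant MIMAT0000533 at 0.24, with 45267, 151593 and 12270 reads in control 1, 2 and 3 and 22912, 9505 and 12178 in CIH 1, 2 and 3. Like miR-212-3p, MIMAT0000533 was highest in control 1 and had control 3 near the CIH libraries, with at least 9505 reads in every library. It was picked as the closest of 379 over 6 libraries, so its likeness lends no support to the pattern of miR-212-3p. Other miRNAs were closer to each member than its partner was, 11 for miR-132-3p and 14 for miR-212-3p. miR-212-3p itself, with 60 reads, was under the minimum for this comparison and was set beside it separately.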

How the data were processed

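The authors deposited raw read counts per mature miRNA, without normalization, for 6 libraries that the labels place in 2 groups of 3. How they trimmed and aligned reads, against which miRNA set, and what they did with reads of ambiguous origin is not given in the sources used here, and the last of these decides how reads too short to separate miR-132-3p from miR-212-3p were counted. From the counts, miRNAs with at least 10 reads in all were tested with edgeR 4.0.16 in R 4.3.3 (TMM, quasi-likelihood, group as the only term), with Benjamini-Hochberg adjustment over all 633. Standard errors were the fold change divided by the root of the F statistic. Permutation tests, Wilson intervals and figures used Python 3.11.15 with scipy 1.17.1. Profiles were log2 CPM with a prior count of 2. The fit was also run on simulated counts in which 200 miRNAs were changed 8-fold. Simulated libraries of a group differed only by random spread, unlike the control libraries here. Both fitted differences, 2.69-fold and 3.43-fold, were smaller, so that run does not show that such differences would be found. The labels do not state that libraries came from separate mice, so p-values measure only the spread between these libraries. Poisson and Wilson intervals cover counting error only.

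The members, lists and tests were chosen with earlier results of these data known. The rule for the miRNAs named took both members, their -5p arms, fixed lists of inflammation and hypoxia miRNAs, and the miRNAs closest in pattern, of which the closest to each member is printed. No table used here pairs accessions with names, so the -5p arms, those lists and the cell type markers were not analysed here. Alternatives were DESeq2 1.42.0, other scalings and filters, limma 3.58.1 with voom, the exact test of edgeR, a replicate block and each library left out.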

Additional observations from a re-analysis of the deposited data

How the results depend on the processing

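The log2 fold change was below 0 in all 15 alternatives for miR-132-3p (-2.11 to -0.43) and in all 14 that tested miR-212-3p (-2.50 to -0.85), and no adjusted p was under 0.05 (lowest 0.110 and 0.0927, highest 0.975 for both). edgeR's filterByExpr filter dropped miR-212-3p. Leaving out 1 library at a time gave values from -1.77 to -0.43 and from -2.26 to -0.85. The difference in the log2 ratio ran from -0.17 to 0.65 in those fits, was 0.10 with a pseudocount of 1, and turned negative without control 2 (-0.17) and without CIH 2 (-0.16). The number of all miRNAs with an adjusted p under 0.05 was 0 (16 at an unadjusted p under 0.05 in edgeR's quasi-likelihood test) and ran from 0 to 118 with a library left out, the 118 without control 3. The number at an unadjusted p under 0.05 with at least 1.5-fold was 16, and 26 with DESeq2, 39 with upper-quartile factors, 8 with the filterByExpr filter, 29 with edgeR's exact test, 75 with limma voom, 3 with the replicate block, and from 1 (without CIH 3) to 225 (without control 3) with a library left out. The cause was not tested, except that filterByExpr tests fewer miRNAs (407). Replicate numbers 1 to 3 occur in both groups, but the correlations between deviations of same-numbered libraries were 0.353, -0.116 and 0.0195. Only the pair numbered 1 correlated best with its own number, in both directions. The library names in the labels also carry matching numbers in the 2 groups. Whether same-numbered libraries were paired cannot be told from these correlations, since deviations from a mean of 3 libraries carry the split among the controls. With the replicate block the log2 fold changes were -1.12 and -1.53, and the ratio difference was 0.19 (exact sign-flip test, p = 1). The -5p arms and the fixed lists were not run, since no table pairs accessions with names. Depth limits miR-212-3p most, with 9 reads in the whole CIH group.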
